A study of Homo sapiens with 18 samples.

Results

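The DNA damage checkpoint genes described here are 10 genes of ATM and ATR signalling, namely ATM, ATR, ATRIP, CHEK1, CHEK2, TOPBP1, CLSPN, WEE1, TP53BP1 and RAD17. They are the rows of the RNA-seq count table that carry these symbols, a rule that uses no measured value, although the list of names was drawn up with earlier results of these data known. All 10 were found among the 23622 genes of the table, and all 10 passed the filter on low counts that left 15760 genes for testing. RNA was measured in A2780, a human ovarian cancer cell line that is sensitive to cisplatin, and in Acis, a cisplatin-resistant line derived from it. Each line was profiled without treatment (A2780 control, Acis control) and after 3 h in 200 µM cisplatin (A2780 cisplatin, Acis cisplatin), with 3 libraries per group and 12 in all. ATAC-seq, which maps open chromatin, gave 1 list of peaks for each of the same 4 conditions. The resistant line was kept under 1 µM cisplatin every 3 passages, so both Acis groups carry that history, and each phenotype is represented by 1 line. Cells were seeded in triplicate for each condition, and nothing states that the triplicates came from separate days or stocks, so that p-values measure only the spread between these samples, which may be technical.

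Cells read DNA damage through a pair of large protein kinases. ATM is activated at double-strand breaks and acts in large part through the effector kinase CHEK2, whereas ATR is recruited by its partner ATRIP to single-stranded DNA coated with RPA and acts through CHEK1. ATR needs further helpers: RAD17 loads a ring-shaped clamp onto DNA, TOPBP1 is the activator that the clamp brings in, and CLSPN (claspin) is the adaptor through which CHEK1 is phosphorylated. TP53BP1 is a chromatin-bound mediator at breaks, and WEE1 is the kinase that holds the cyclin-dependent kinases in their inhibited state and so delays entry into mitosis. Cisplatin forms crosslinks between neighbouring bases that stall replication forks and RNA polymerases, and stalled forks are a classical trigger of ATR. These proteins are controlled mainly by phosphorylation, which neither assay measures.

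The libraries held 4130644 to 5072216 counts, and TMM factors, which rescale libraries for differences in composition, ranged from 0.965 to 1.05. At least 1 pair of libraries in every group differed by no more than the counting noise, with a mean squared difference of 0.731 to 1.53 times that noise over all pairs, and all 3 pairs of A2780 control lay below it. The 3 libraries of a group were kept as replicates, and the calls that were lost when the closest pair of each group was merged into 1 library are given beside the results. Both lines held the mesenchymal gene VIM at 1745 to 2105 normalized counts per library, whereas the epithelial gene EPCAM did not exceed 5.80 in any library. KRT18 was at 25.5 normalized counts in A2780 control and 143 in Acis control, and COL1A1 at 843 and 16.4, so the lines are not alike in these marker genes. Of the 8 epithelial and ovarian carcinoma markers looked for, PAX8, WT1, KRT7, CDH1 and MUC16 were not found under these symbols among the 23622 genes of the count table. The lowest total of any gene there was 10 counts. The label could therefore be checked against the levels of EPCAM, KRT8 and KRT18 alone, and neither EPCAM nor KRT8 exceeded 7.86 normalized counts in an Acis library. KRT8 was at 15.6 normalized counts in A2780 control and 4.05 in Acis control, and EPCAM at 3.55 and 0.734. Both were thus lower in Acis, whereas KRT18 was higher there, and no test was run on these levels.

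Before the values, the sequence ahead of 3 genes is shown, because in A2780 ATR and ATM had the largest decreases after cisplatin and ATRIP, the obligate partner of ATR, was the only member that rose. Each line gives the 250 bases upstream of a RefSeq start on GRCh38.p14, read on the strand of the gene. The capitals mark exact matches, on either strand, of CCAAT (the letters bound by NF-Y), of GGGCGG (a GC box), of TTCCCGC or TTGGCGC (E2F) and of TGAGTCA (AP-1).
ATR, chr3:142578734-142578983, minus strand: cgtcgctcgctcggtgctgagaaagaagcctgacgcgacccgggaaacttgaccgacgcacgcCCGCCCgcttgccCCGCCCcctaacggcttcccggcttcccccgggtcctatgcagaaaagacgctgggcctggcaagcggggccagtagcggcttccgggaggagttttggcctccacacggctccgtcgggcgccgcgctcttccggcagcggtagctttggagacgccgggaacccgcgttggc
ATM, chr11:108222817-108223066, plus strand: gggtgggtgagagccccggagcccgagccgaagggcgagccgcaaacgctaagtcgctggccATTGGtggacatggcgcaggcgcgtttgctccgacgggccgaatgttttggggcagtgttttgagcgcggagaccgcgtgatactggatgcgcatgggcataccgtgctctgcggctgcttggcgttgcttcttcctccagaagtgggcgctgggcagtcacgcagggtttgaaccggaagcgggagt
ATRIP, chr3:48446487-48446736, plus strand: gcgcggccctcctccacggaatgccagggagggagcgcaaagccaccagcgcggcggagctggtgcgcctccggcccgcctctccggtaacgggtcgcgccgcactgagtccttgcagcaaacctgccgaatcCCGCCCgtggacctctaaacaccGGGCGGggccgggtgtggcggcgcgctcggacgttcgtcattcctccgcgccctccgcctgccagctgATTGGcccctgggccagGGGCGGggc
The ATR window held 2 GC boxes, the ATM window shown 1 CCAAT and the ATRIP window shown 3 GC boxes and 1 CCAAT. ATM and ATRIP each have another RefSeq start, whose window is not shown and held 1 CCAAT and no GC box. Such letters are common, since GGGCGG occurs in 42.6% and CCAAT in 32.0% of the 35116 RefSeq windows searched in the same way. The E2F letters occur in 7.8% and the AP-1 letters in 4.2% of all windows, and neither was found in the 3 windows shown. These are matches of letters only, and binding was not measured. WEE1 has no window in the RefSeq set used here, and the other 9 members do.

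**Figure D1:**
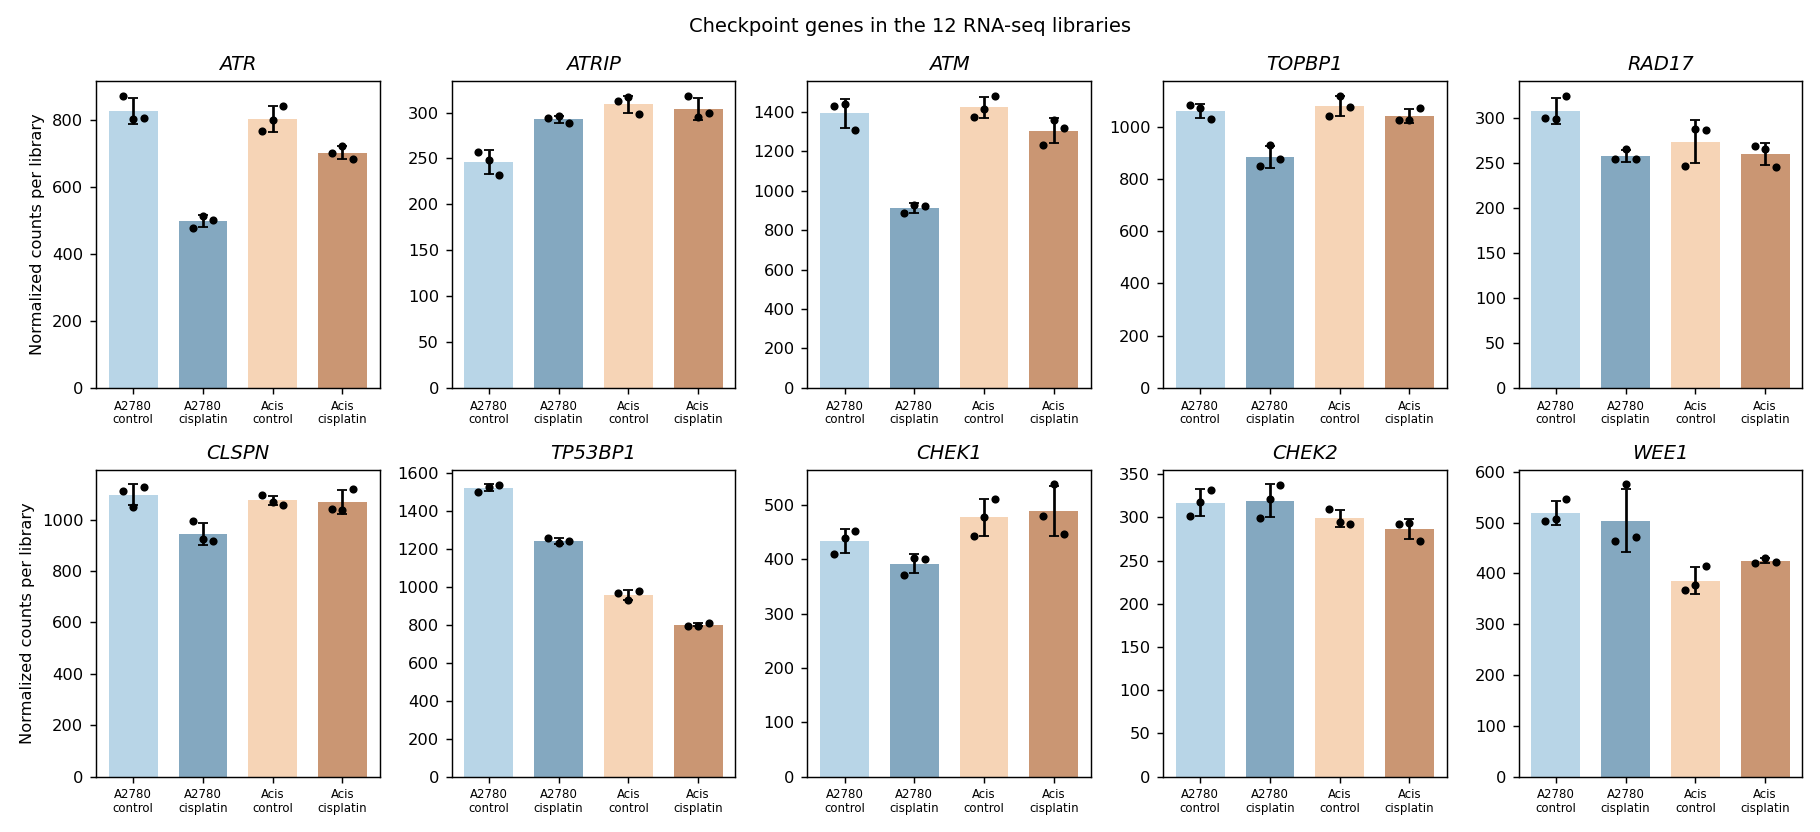
Normalized counts per library (vertical axis, starting at 0) of the 10 checkpoint genes in the 4 groups. Bars are means of 3 libraries, error bars are 1 SD and points are single libraries in the order of replicates 1 to 3. The ATR and ATM points of A2780 cisplatin (478 to 512 and 885 to 929.9 normalized counts) lie under every point of the other 3 groups, and the TP53BP1 points of both Acis groups lie under those of both A2780 groups.

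The first comparison asked how the checkpoint genes responded to cisplatin in the sensitive line. In A2780, 6 of the 10 genes fell and 1 rose, and the largest decreases were those of the apical kinases ATR and ATM. ATR, the kinase of stalled forks, was at 0.602 times its control level, and ATM, the kinase of double-strand breaks, at 0.655 times. TP53BP1, TOPBP1, RAD17 and CLSPN fell by smaller amounts, ATRIP rose, and the effector kinases CHEK1 and CHEK2 and the mitotic inhibitor WEE1 did not pass the test. Among all 15760 genes tested, 28.2% were lower and 21.2% higher at an adjusted p under 0.05, and 49.5% were called in either direction, against 7 of the 10 members. The median log2 fold change was -0.23 over the members and -0.01 over all genes. None of the 10 reached an absolute log2 fold change of 1, the size that the study's own call requires and that 5.62% of all genes reached with an adjusted p under 0.05.

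ATR had 872, 803 and 805 normalized counts in the 3 A2780 control libraries and 478, 512 and 502 after cisplatin. The highest treated library lay far below the lowest control. The log2 fold change was -0.73 with a standard error of 0.05 (edgeR quasi-likelihood test, Benjamini-Hochberg adjusted p = 1.57e-12). In bulk RNA a smaller number of cells that express a gene and less of its RNA in each cell cannot be told apart. ATM went from 1430.5, 1440.1 and 1308 normalized counts to 885, 929.9 and 921, again without overlap, a log2 fold change of -0.61 with a standard error of 0.04 (adjusted p = 6.1e-12). Both calls held in all 19 alternative analyses, with log2 fold changes of -0.76 to -0.62 for ATR and of -0.66 to -0.49 for ATM.

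ATRIP, the subunit that carries ATR to RPA-coated DNA, moved the other way. Its control libraries had 257, 248 and 232 normalized counts and its treated libraries 294, 296 and 288. All 3 treated libraries lay above all controls, by a log2 fold change of 0.25 with a standard error of 0.06 (adjusted p = 0.00136). The ratio of raw ATR counts to raw ATRIP counts in a library, which needs no scaling between libraries, was 3.39, 3.24 and 3.48 in A2780 control and 1.63, 1.73 and 1.74 in A2780 cisplatin. ATRIP shares 1448 bases of annotated exon with TREX1, a nuclease gene on the same strand that is not among the genes of the count table. Whether reads of those bases were counted for ATRIP or left out is not known.

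TOPBP1, RAD17 and CLSPN, which help ATR act, fell in A2780. TOPBP1, the activator of ATR, had 1083, 1070.0 and 1029.7 normalized counts in control and 849.8, 931 and 875 in treated libraries, a log2 fold change of -0.26 with a standard error of 0.04 (adjusted p = 5.07e-06). RAD17, the clamp loader, had 299, 298 and 324 normalized counts before and 254, 265 and 254 after treatment (log2 fold change -0.25, standard error 0.07, adjusted p = 0.0023). CLSPN, the adaptor of CHEK1, went from 1113, 1049.8 and 1127 to 994, 927 and 916 (log2 fold change -0.21, standard error 0.04, adjusted p = 0.000113). The groups did not overlap for any of these 3 genes. With library size taken as the plain total, the median of all genes moved from -0.01 to 0.10, the share of lower genes among those called went from 57.1% to 36.6%, and 2 of these decreases were no longer called, with an adjusted p of 0.0514 for CLSPN and 0.0943 for RAD17. RAD17 has 2 annotated pseudogenes by name, of which 1 is in the count table, so its level is less certain than that of TOPBP1.

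TP53BP1, the mediator at breaks, had the tightest libraries of the set in A2780. Its 3 controls held 1503, 1528 and 1538 normalized counts and its treated libraries 1259, 1229.5 and 1239.7. The decrease, a log2 fold change of -0.29 with a standard error of 0.03, was called with an adjusted p of 1.41e-08 and kept its call in all 19 alternatives. The exons of TP53BP1 share 3732 bases with TUBGCP4 on the opposite strand, which the strand-specific counting separates.

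The effector kinases gave no call in A2780. CHEK1 had 410.3, 440.3 and 452 normalized counts in control and 372, 403 and 401 in treated libraries. These groups did not overlap, although the log2 fold change of -0.14 (95% interval -0.28 to -0.01) had an adjusted p of 0.072. CHEK1 was called lower in 6 of the 19 alternatives, among them the fit with the replicate number as a block (adjusted p = 0.0479). CHEK2 had 301, 318 and 332 normalized counts in control and 299, 321 and 337 in treated libraries, so that the groups lay over each other. Its log2 fold change was 0.01 (95% interval -0.11 to 0.14, adjusted p = 0.882). The 7 annotated pseudogenes of CHEK2, of which 1 is in the count table, make the assignment of its reads uncertain. WEE1 had 504, 508 and 546 normalized counts in control and 463, 575 and 472 in treated libraries, the widest relative spread of any member in any group. The log2 fold change of WEE1 was -0.04 (95% interval -0.17 to 0.09, adjusted p = 0.626), and without the second treated library, which held the 575, it was -0.15 with an adjusted p of 0.0326. WEE1 has 2 annotated pseudogenes by name, neither of them in the count table, so the assignment of its reads is uncertain too. Groups were free of overlap for 8 of the 10 members in this comparison, against 57.3% of all genes tested.

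The same question was asked of the resistant line, where 3 of the 10 checkpoint genes were called. In Acis, TP53BP1, ATR and ATM fell, no member rose, and 7 did not pass the test, against 12.4% lower and 9.35% higher among all genes and 21.8% called in either direction. The median log2 fold change was -0.06 over the members and 0.01 over all genes, and no member reached an absolute log2 fold change of 1, which 2.01% of all genes did. With total counts alone as library size, the share of lower genes among all called in Acis went from 57.1% to 37.6%.

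TP53BP1 had the largest change of the set in Acis, from 969, 929 and 980.5 normalized counts to 796, 795 and 809. No treated library came near the controls, and the log2 fold change of -0.26 with a standard error of 0.04 had an adjusted p of 7.39e-06. ATR went from 766, 800.4 and 841 normalized counts to 701, 720.5 and 683, also without overlap (log2 fold change -0.19, standard error 0.05, adjusted p = 0.00286). ATM had 1376, 1413 and 1482 normalized counts in control and 1234, 1356 and 1320.0 in treated libraries, so that the highest treated library lay close under the lowest control library. The log2 fold change of ATM was -0.13 with a standard error of 0.04 and an adjusted p of 0.0271. This call was lost in 4 of the 19 alternatives, with adjusted p values of 0.226 when total counts alone were the library size, 0.076 with merged replicates, 0.197 without the first treated library and 0.131 without the third control library.

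The other members overlapped between Acis control and Acis cisplatin, except WEE1. WEE1 had 366, 376 and 415 normalized counts in control and 421, 431 and 423 in treated libraries, a log2 fold change of 0.14 (95% interval -0.0042 to 0.29) with an adjusted p of 0.171. It was called higher only with total counts alone as library size (log2 fold change 0.20, adjusted p = 0.0469). Counting WEE1, the groups did not overlap for 4 of the 10 members, against 34.3% of all genes. The 95% intervals of the remaining genes were -0.15 to 0.10 for ATRIP, -0.13 to 0.03 for TOPBP1, -0.09 to 0.08 for CLSPN, -0.09 to 0.17 for CHEK1, -0.19 to 0.07 for CHEK2 and -0.21 to 0.07 for RAD17 on the log2 scale.

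**Figure D2:**
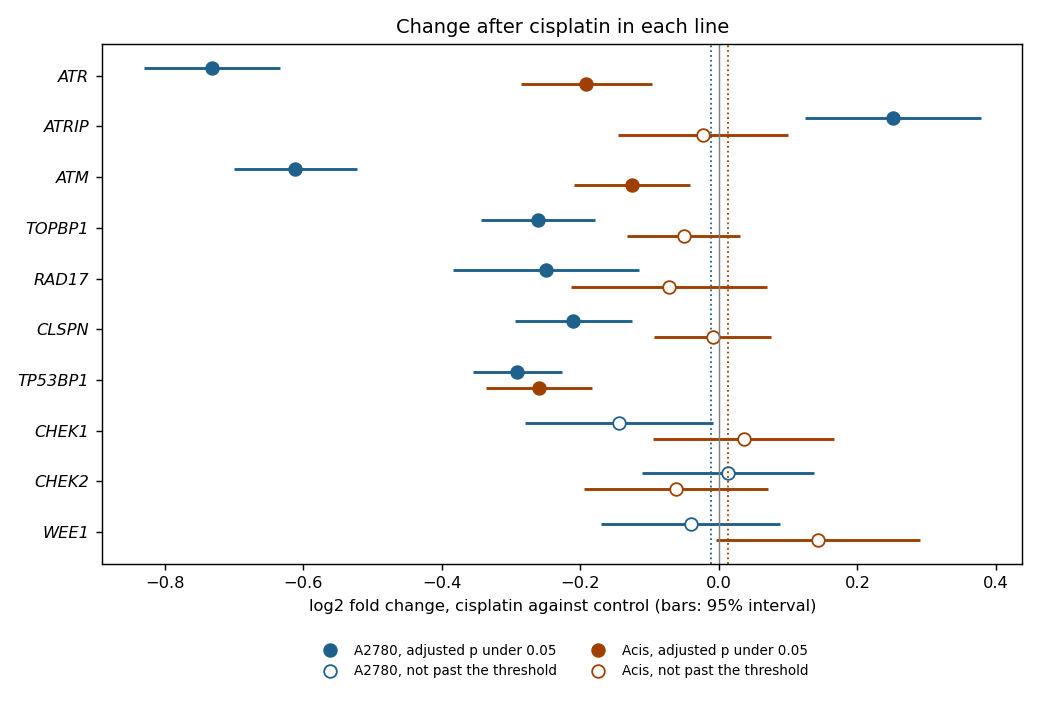
Log2 fold change of each checkpoint gene after cisplatin (horizontal axis) in A2780 (blue) and Acis (brown), with 95% intervals as bars. Filled points had an adjusted p under 0.05 in the edgeR quasi-likelihood test, and dotted lines mark the median of all 15760 genes in each line. ATR (-0.73 and -0.19) and ATM (-0.61 and -0.13) differ between the lines, whereas the points of TP53BP1 (-0.29 and -0.26) lie close together.

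Whether the response differed between the lines was tested with an interaction term, the cisplatin effect in Acis minus that in A2780. The effect was less negative in Acis for ATR, ATM, TOPBP1 and CLSPN and less positive for ATRIP. These are 4 higher and 1 lower of 10 members, against 13.4% higher, 5.48% lower and 18.9% in either direction among all genes. The median difference was 0.03 over all genes and 0.19 over those of 60 to 200 kb, the length class of ATR, ATM and TOPBP1. The difference was 0.54 for ATR on the log2 scale, with a standard error of 0.07 and an adjusted p of 2.54e-06, and 0.49 for ATM, with a standard error of 0.06 and an adjusted p of 2.27e-06. Both held in all 19 alternatives. The difference was 0.21 for TOPBP1 (adjusted p = 0.0095) and 0.20 for CLSPN (adjusted p = 0.0149), and neither was called when total counts alone were the library size (adjusted p = 0.0625 and 0.087) or in DESeq2 (adjusted p = 0.0791 and 0.0969). CLSPN also lost its call with merged replicates (adjusted p = 0.0639). With total counts alone, the share of lower genes among all called differences went from 29% to 51.8%.

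The ATRIP difference of -0.27 (standard error 0.09, adjusted p = 0.0333) was the least steady of the 5. It was called in 8 of 19 alternatives, and over all of them its adjusted p ranged from 0.00737 to 0.146. Leaving out any 1 of 8 libraries ended the call, namely replicates 1 and 2 of A2780 cisplatin, 2 and 3 of A2780 control, 2 and 3 of Acis cisplatin, or 1 and 2 of Acis control, with adjusted p values of 0.0597, 0.0577, 0.0557, 0.111, 0.0865, 0.0586, 0.0744 and 0.0752 in that order. It was also lost without a filter on low counts (0.0686), in DESeq2 (0.146) and with merged replicates (0.0718). The ratio of raw ATR to raw ATRIP counts was 2.45, 2.53 and 2.82 in Acis control and 2.21, 2.44 and 2.28 in Acis cisplatin, where the 2 groups all but touched, in contrast to the gap seen in A2780.

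For the other 5 genes the difference between the lines did not pass the test, which leaves its size within the interval. The 95% interval was narrowest for TP53BP1, from -0.07 to 0.13 around 0.03. It ran from -0.01 to 0.37 for CHEK1, from -0.01 to 0.38 for WEE1, from -0.02 to 0.37 for RAD17 and from -0.26 to 0.11 for CHEK2. WEE1 was called when the second library of A2780 cisplatin was left out (log2 difference 0.29, adjusted p = 0.0114).

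A second question was how the lines differed at each state of treatment. The 2 comparisons below use the same libraries as those above, so their values are given side by side and are not independent of them. Without treatment, 1 member was higher in Acis and 3 were lower, against 28.2% higher, 30.6% lower and 58.9% in either direction among all genes. Under cisplatin, 5 were higher and 3 lower, against 31.8%, 31.2% and 63.0%. No member reached an absolute log2 fold change of 1 in either, which 19.1% and 19.2% of all genes did. Libraries of the lines did not overlap for 4 members without treatment (64.2% of all genes) and for 8 under cisplatin (66.8%).

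TP53BP1 had the largest difference between the untreated lines. Its 929 to 980.5 normalized counts in Acis control stood against 1503 to 1538 in A2780 control, 0.629 times as many (log2 fold change -0.67, standard error 0.03, adjusted p = 5.55e-16). Under cisplatin the log2 fold change was -0.64 (adjusted p = 4.41e-15). WEE1 was also lower in Acis, with 366 to 415 against 504 to 546 normalized counts without treatment (log2 fold change -0.43, standard error 0.07, adjusted p = 5.03e-06) and 421 to 431 against 463 to 575 under cisplatin (log2 fold change -0.24, adjusted p = 0.002). ATRIP was higher in untreated Acis, with 299 to 317 against 232 to 257 normalized counts (log2 fold change 0.33, standard error 0.06, adjusted p = 5.39e-05). Its level in A2780 cisplatin, 288 to 296, overlapped that in Acis cisplatin, 295 to 318. RAD17 was lower in untreated Acis by a log2 fold change of -0.17 (adjusted p = 0.0316), a call lost without the third A2780 control library (0.104), without the first Acis control library (0.229) and in DESeq2 (0.188).

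ATM and ATR did not differ detectably between the untreated lines, with log2 fold changes of 0.03 (95% interval -0.06 to 0.11) and -0.05 (95% interval -0.14 to 0.05). Under cisplatin, ATM was 1.43 times and ATR 1.41 times as high in Acis as in A2780, with log2 fold changes of 0.51 (adjusted p = 4.95e-11) and 0.49 (adjusted p = 1.45e-09). The other kinase of this arm, CHEK1, was at 447 to 538 normalized counts in Acis cisplatin and 372 to 403 in A2780 cisplatin (log2 fold change 0.32, standard error 0.06, adjusted p = 0.000109). TOPBP1 and CLSPN were higher under cisplatin by log2 fold changes of 0.23 (adjusted p = 1.41e-05) and 0.17 (adjusted p = 0.000636). CHEK2, the effector of ATM, was lower in Acis cisplatin by a log2 fold change of -0.16 (adjusted p = 0.0302). The call of CHEK2 was lost in 6 of 19 alternatives, among them those without A2780 cisplatin replicate 2 (0.0673) or 3 (0.179) or the third Acis cisplatin library (0.156) and the one with merged replicates (0.0573).

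**Figure D3:**
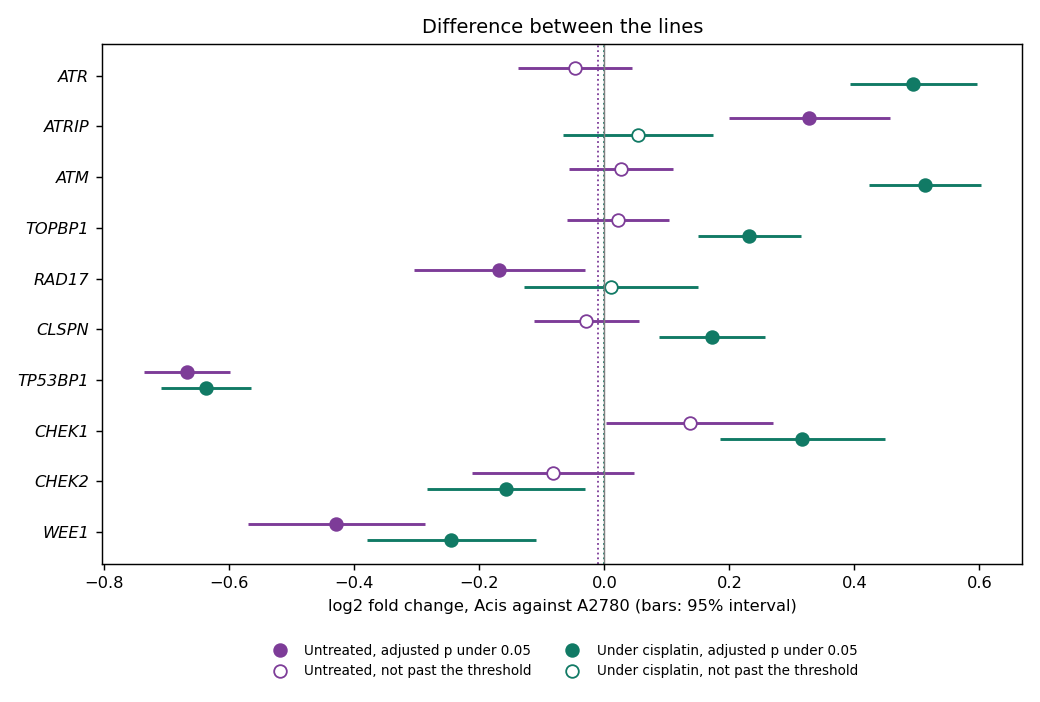
Log2 fold change of each checkpoint gene in Acis against A2780 (horizontal axis), untreated (purple) and under cisplatin (green), with 95% intervals as bars. Filled points had an adjusted p under 0.05 in the edgeR quasi-likelihood test, and dotted lines mark the medians of all genes. ATR and ATM lie near 0 without treatment and at 0.49 and 0.51 under cisplatin, and TP53BP1 lies at -0.67 and -0.64.

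The members differ widely in the length of DNA that is transcribed, a property that the choice of genes did not use. On GRCh38 with GENCODE 44, ATM spans 146.1 kb (chr11:108223044-108369102), ATR 129.7 kb (chr3:142449007-142578733) and TP53BP1 107.7 kb (chr15:43403061-43510728). TOPBP1 spans 64.2 kb, CHEK2 54.7 kb, CHEK1 51.1 kb, CLSPN 49.8 kb and RAD17 45.5 kb, and the shortest are ATRIP with 20.9 kb (chr3:48446710-48467645) and WEE1 with 19.8 kb. In A2780 the 2 longest members had the largest decreases, and the 2 shortest had log2 fold changes of 0.25 and -0.04. Over all tested genes with an annotated length, the median log2 fold change in A2780 was 0.18 for genes under 20 kb, -0.05 for those of 20 to 60 kb, -0.31 for those of 60 to 200 kb and -0.44 for longer ones. In Acis these medians were 0.08, 0.02, -0.10 and -0.22. For the effect in Acis minus that in A2780 they were -0.10, 0.07, 0.19 and 0.18, and TOPBP1, with 0.21, lay near the median of its class. Of the 3250 genes of 60 to 200 kb, the class that holds ATM, ATR, TP53BP1 and TOPBP1, 64.5% were called lower in A2780. TP53BP1 (-0.29) and TOPBP1 (-0.26) lay near the median of their class there, and ATR and ATM below it. In Acis, where the median of this class was -0.10, TP53BP1 (-0.26) lay furthest below it. ATR (-0.19) was also below that median, ATM (-0.13) close under it and TOPBP1 (-0.05) above it. Spearman's rho between length and log2 fold change was -0.794 in A2780 and -0.745 in Acis over the 10 members, and -0.545 and -0.355 over 15708 genes. These correlations are across genes measured in the same libraries, which are not independent replicates, and the part of length in the members' changes was not tested.

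**Figure D4:**
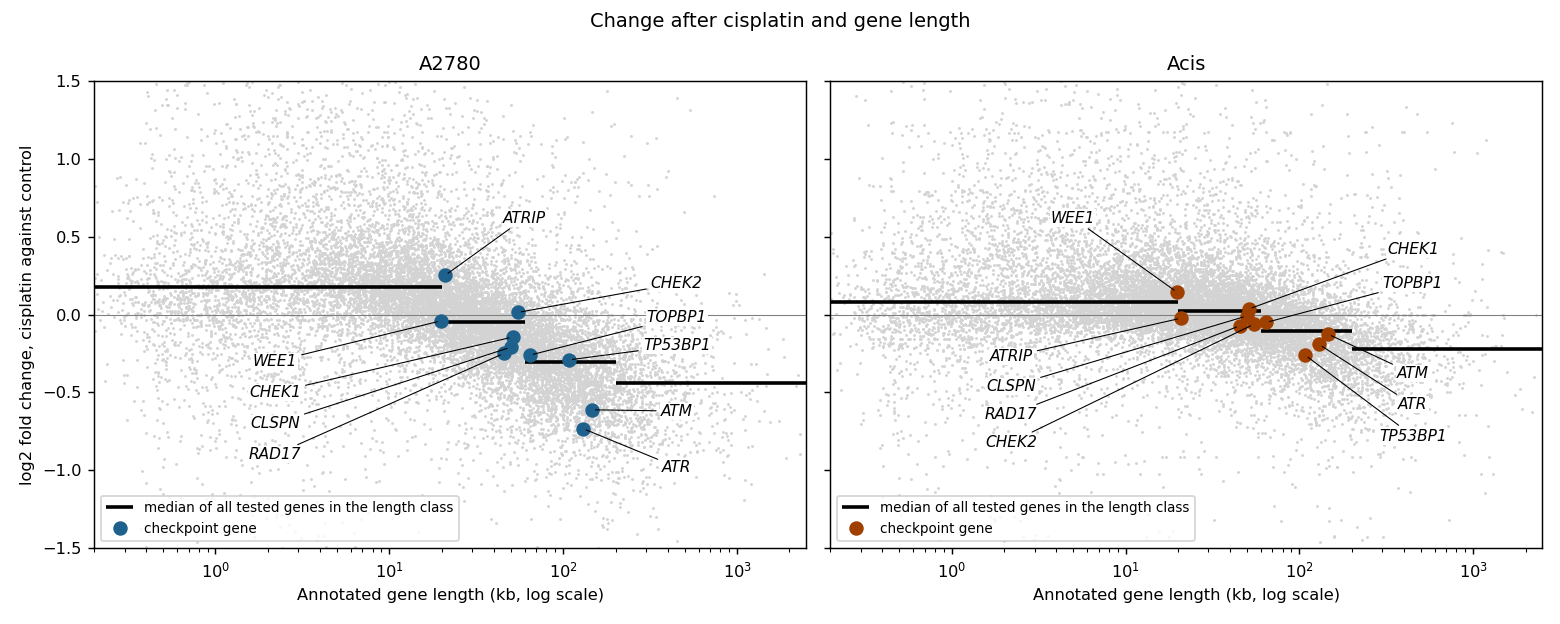
Log2 fold change after cisplatin (vertical axis) against annotated gene length in kb (horizontal axis, log scale) in A2780 (left) and Acis (right). Grey points are tested genes within the axes, black lines the medians of all tested genes in 4 length classes and coloured points the checkpoint genes. ATM (146.1 kb) and ATR (129.7 kb) lie under the median of their class in A2780 (-0.31). In Acis all 10 members lie within 0.26 of 0, and TP53BP1 (-0.26) lies furthest under the median of the same class (-0.10).

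Levels of different genes were compared as counts per kilobase of merged exon, scaled for library size (RPKM). In A2780 control the order ran from TOPBP1 with 31.5 ± 0.82 (SD, n = 3) through TP53BP1 (25.5 ± 0.30), CLSPN (24.9 ± 0.93), CHEK1 (16.9 ± 0.84), RAD17 (16.1 ± 0.78), CHEK2 (15.4 ± 0.74), WEE1 (12.2 ± 0.56), ATRIP (9.84 ± 0.52) and ATM (7.74 ± 0.41) to ATR with 6.60 ± 0.32. The libraries of TP53BP1 and CLSPN overlapped, as did those of CHEK1 with RAD17 and of RAD17 with CHEK2, and no other neighbours in this order overlapped. TOPBP1 led and ATR was last in all 4 groups. In Acis control TP53BP1 stood at 16.1 ± 0.45 RPKM, under CLSPN (24.4 ± 0.42) and CHEK1 (18.6 ± 1.34). The low place of ATM and ATR depends on the length used. Merged exons of ATM add up to 39184 bases against 12915 in its canonical transcript, and those of ATR to 27234 against 8158. Per kilobase of the canonical transcript, ATM (23.5 RPKM) and ATR (22.0) no longer stood last in A2780 control, TOPBP1 (40.1) and CHEK2 (37.4) led, and ATRIP (11.7) came at the end.

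The promoters of all 10 genes were open in all 4 conditions. Each gene had 1 ATAC-seq peak within 500 bp of its annotated start in each list, and the gene bodies held 1 to 3 peaks. For ATR the fold enrichment of that peak over the local background was 23.1 before and 21.8 after cisplatin in A2780, and 23.9 before and 26.6 after in Acis. ATM had 20.5, 18.7, 22.8 and 24.8 in the same order. These peaks cover the ATR and ATM windows printed above, and both genes had them in A2780 cisplatin, where their RNA was lowest. Whether open chromatin had a part in the RNA changes was not tested. ATRIP had the lowest enrichment of the set in every list, with 7.76, 5.71, 9.89 and 6.73, where the medians over all peaks of a list were 9.96, 8.79, 12.8 and 11.0. TOPBP1 was next, at 10.1, 9.20, 12.2 and 10.3. Fold enrichments of different lists depend on depth, and with 1 list per condition, merged over replicates that were not analysed here separately, the differences could not be tested.

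**Figure D5:**
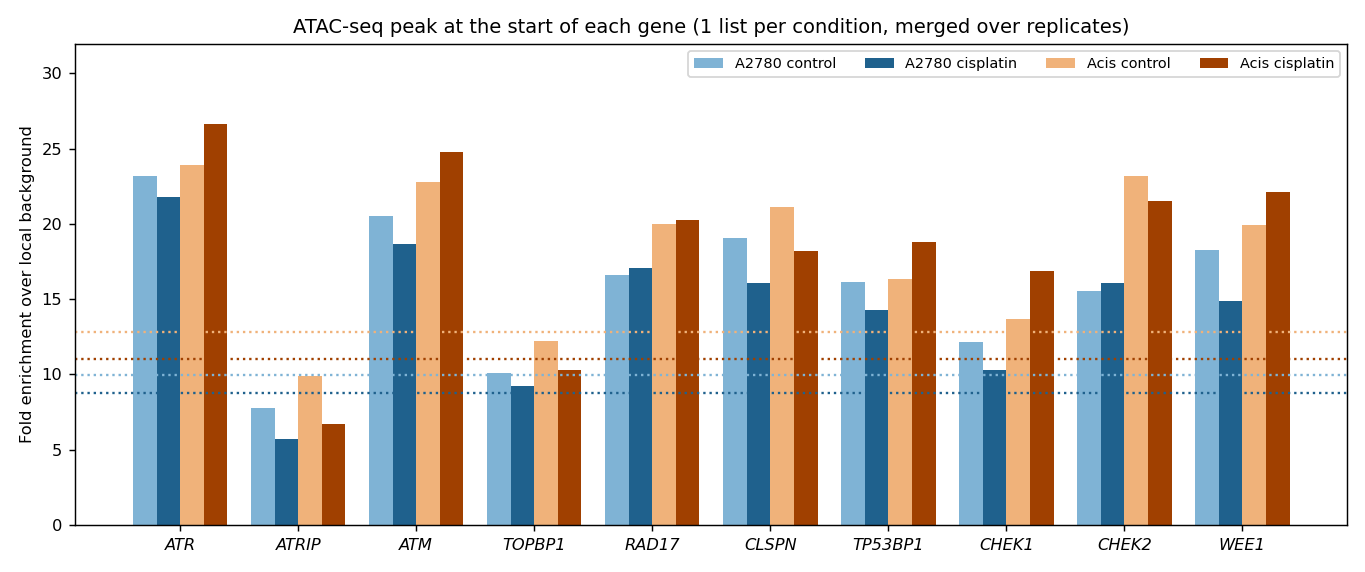
Fold enrichment over local background (vertical axis, from 0) of the ATAC-seq peak at the start of each checkpoint gene in the 4 conditions. Each bar is 1 peak of a list merged over replicates, so there are no error bars, and dotted lines mark the median of all peaks in the list of the same colour. ATR and ATM lie above the medians in every list, at 18.7 to 26.6, and ATRIP lies below them.

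To place the members in their pathway, 37 further genes of the checkpoint network were examined in 4 lists, and all 37 were tested. In A2780, 7 of them rose, 11 fell and 19 did not pass the test, against 21.2% higher, 28.2% lower and 49.5% in either direction among all genes. The number that rose depended on the processing, with 17 when the plain total was the library size, 14 with a mean of at least 50 counts, and 4 without a filter, in DESeq2 and with merged replicates. In Acis, 4 rose, 4 fell and 29 did not pass, against 9.35%, 12.4% and 21.8% of all genes, and 8 rose with the plain total and 2 in DESeq2. Their median log2 fold change was -0.01 in A2780 and 0.02 in Acis, close to that of all genes. The lists were chosen with earlier results of these data known, so their counts are a description.

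Among the break sensors and chromatin mediators, 7 of 11 genes fell and 2 rose in A2780, where 28.2% of all genes fell and 21.2% rose, with a median log2 fold change of -0.24. RIF1, which acts with TP53BP1 to limit resection of DNA ends, had 2094 ± 23.1 normalized counts in A2780 control and 1391 ± 59.4 after cisplatin (SD, n = 3). Its log2 fold change was -0.59 (adjusted p = 4.73e-13). In Acis its log2 fold change was -0.05 (adjusted p = 0.317), and the difference between the lines was 0.53 (adjusted p = 7e-08). BRCA1, the homologous recombination factor, fell by 0.46 on the log2 scale in A2780 (adjusted p = 4.25e-10) and by 0.17 in Acis (adjusted p = 0.00368), a difference of 0.29 (adjusted p = 0.000724). MDC1, the adaptor that reads phosphorylated H2AX, fell by 0.27 in A2780 (adjusted p = 4.59e-05) and by 0.25 in Acis (adjusted p = 0.000602). USP28, a deubiquitinase that binds TP53BP1, fell by 0.31 in A2780 (adjusted p = 8.57e-05), and in Acis its log2 fold change was -0.13 (adjusted p = 0.103). The difference between the lines for USP28, 0.17, did not pass the test (adjusted p = 0.152).

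Among the 12 genes that sense single-stranded DNA or form the clamp and its loader, 2 rose, 1 fell and 9 did not pass the test in A2780, against 49.5% of all genes called. RAD9A, a subunit of the clamp that RAD17 loads, went from 104 ± 11.5 to 166 ± 15.3 normalized counts in A2780 (log2 fold change 0.68, adjusted p = 7.52e-07). In Acis it had a log2 fold change of 0.16 (adjusted p = 0.261), and the difference was -0.52 (adjusted p = 0.00571). RAD1, another clamp subunit, rose in both lines, by log2 fold changes of 0.17 in A2780 (adjusted p = 0.0405) and 0.42 in Acis (adjusted p = 4.14e-05). Its control and treated libraries overlapped in A2780 and did not overlap in Acis. RFC3, a subunit of the clamp loader, fell by 0.15 in A2780 (adjusted p = 0.021) and was lower in untreated Acis than in A2780 by a log2 fold change of -0.76 (adjusted p = 2.05e-12). RPA3, the small subunit of RPA, was not called in either line. The fork protection partners TIMELESS and TIPIN did not pass the test in A2780 or in Acis, and TIMELESS was lower in untreated Acis (log2 fold change -0.67, adjusted p = 7.47e-14).

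Of the 12 targets of the checkpoint kinases and cell cycle effectors, 3 rose, 3 fell and 6 did not pass in A2780, a share near the 49.5% of all genes called. CDKN1A, the p53 target that inhibits cyclin-dependent kinases, rose by log2 fold changes of 0.85 in A2780 (adjusted p = 1.27e-14) and 0.82 in Acis (adjusted p = 9.56e-09), from 531 ± 6.70 and 152 ± 2.65 normalized counts. The interaction for CDKN1A was -0.03 (95% interval -0.22 to 0.16). Its level was lower in Acis, by log2 fold changes of -1.80 without treatment and -1.83 under cisplatin (edgeR quasi-likelihood test, adjusted p = 5.64e-19 and 4.64e-22). The 269 ± 25.7 normalized counts of Acis cisplatin thus lay below those of A2780 control. MDM2, which marks p53 for degradation, fell by 0.22 on the log2 scale in A2780 (adjusted p = 4.36e-05) and rose by 0.15 in Acis (adjusted p = 0.00556), a difference of 0.37 (adjusted p = 3.21e-05). MDM4, its partner, fell by 0.28 in A2780 (adjusted p = 2.83e-07), and in Acis its log2 fold change was -0.09 (adjusted p = 0.142), a difference of 0.20 (adjusted p = 0.0114). PKMYT1, a kinase related to WEE1 that also inhibits CDK1, rose in A2780 by a log2 fold change of 0.37 (adjusted p = 2.34e-05), and had 0.14 in Acis (adjusted p = 0.0965). The difference between the lines for PKMYT1, -0.23, did not pass the test (adjusted p = 0.0675).

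Genes with the most similar profile over the 12 libraries were listed for the 4 checkpoint kinases, by Pearson's r of log2 CPM among 9327 genes with a mean of at least 100 normalized counts. ATR was closest to ERBIN (0.991) and MARCHF6 (0.989). ATM was closest to BRWD1 (0.983), MARCHF6 (0.979) and TAOK1 (0.978), and its r with ATR was 0.974. CHEK1 was closest to TIAL1 (0.947), MIER1 (0.946) and YTHDF3 (0.946), and CHEK2 to DTD1 (0.896), NIF3L1 (0.87) and FXR2 (0.867). The 12 points fall into 4 groups of 3 and share library scaling, so these values describe a common order of the groups.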

How the data were processed

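RNA-seq counts are raw, as deposited by the authors, who removed PCR duplicates after STAR alignment to hg38 and counted reads on genes with htseq-count in reverse-stranded mode. The ATAC-seq peak files hold a fold enrichment (ratio) over local background and a -log10 q-value for each peak, both computed by MACS2 and deposited by the authors, with 1 list per condition of peaks shared by all replicates. Other tools and versions in the submitters' processing notes were not needed here. For the tests, edgeR 4.0.16 in R 4.3.3 was used with TMM normalization and its default filter on low counts (15760 of 23622 genes kept). The 12 libraries in 4 groups left 8 residual degrees of freedom, and p-values of the quasi-likelihood test were adjusted by the Benjamini-Hochberg method over all genes tested. A call is an adjusted p-value under 0.05. Normalized counts are TMM-scaled to the mean library total of 4594673. Libraries held 4130644 to 5072216 counts, and duplicate removal leaves intervals that cover counting error and replicate spread only. DESeq2 1.42.0, other scalings and filters, left-out libraries, a replicate block and merged replicates were alternatives. The fit was also run on simulated counts with independent replicates, a run that cannot show whether the triplicates are technical. The members and the lists were chosen with earlier results of these data known. Named pathway genes are at most 4 of each list with the smallest adjusted p-values in A2780. Of the genes most similar in profile to each kinase, 3 were to be named, and 1 is not reported here. Gene positions came from GENCODE 44 and upstream sequences from RefSeq (GRCh38.p14). Canonical transcript length was an alternative added after seeing the data.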

Additional observations from a re-analysis of the deposited data

Results flagged for a closer look

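The cisplatin effect differed between the lines in the interaction test for 5 of the 10 checkpoint genes. On the log2 scale, the effect in Acis minus that in A2780 was 0.54 for ATR, 0.49 for ATM, 0.21 for TOPBP1, 0.20 for CLSPN and -0.27 for ATRIP. ATR and ATM moved in the same direction in both lines and by more in A2780. TOPBP1, CLSPN and ATRIP passed the test of the cisplatin effect in A2780, and in Acis their 95% intervals held 0.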

How the results depend on the processing

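Under 7 other settings and with each of the 12 libraries left out in turn, ATR and ATM kept their calls in A2780, under cisplatin between the lines and in the interaction. With total counts alone as library size, 1 member was called higher in Acis and 2 instead of 4 in the interaction, and log2 fold changes changed sign for WEE1 in A2780 (0.0763), for ATRIP (0.0313), TOPBP1 (0.0034) and CLSPN (0.0452) in Acis, for ATRIP (-0.0016) and RAD17 (-0.0448) between the lines under cisplatin, and for the TP53BP1 interaction (-0.0318). With a minimum mean of 50 counts the sign changed for WEE1 in A2780 (0.0186), CLSPN in Acis (0.001), RAD17 between the lines under cisplatin (-0.0387) and the TP53BP1 interaction (-0.0182). The RAD17 line difference under cisplatin was also negative with DESeq2 size factors (-0.0103), in DESeq2 (-0.0029) and with merged replicates (-0.0015). CHEK2 in A2780 was negative without a filter (-0.015) and with merged replicates (-0.0064). None of the values that changed sign had an adjusted p under 0.05, and the causes were not tested. Over all genes, DESeq2 called 537 higher and 1544 lower in Acis, against 1474 and 1962 in edgeR, and 1090 and 294 in the interaction, against 2113 and 863. Of the 37 other pathway genes, 17 (plain total), 14 (mean of at least 50 counts) and 4 (no filter, DESeq2, merged replicates) rose in A2780, against 7, and 8 (plain total) and 2 (DESeq2) in Acis, against 4. In the interaction DESeq2 called 2 members higher, and 0 were lower without a filter, in DESeq2 and with merged replicates.

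Leaving out 1 library, the untreated line difference called 1 to 2 members higher and the interaction 0 to 1 lower. Log2 fold changes ranged from -0.0294 to 0.0565 for CHEK2 and -0.1481 to 0.0157 for WEE1 in A2780, from -0.0395 to 0.0946 for CHEK1 and -0.0461 to 0.0095 for CLSPN in Acis, from -0.0289 to 0.0368 for ATM and -0.0155 to 0.0318 for TOPBP1 between the untreated lines, and from -0.0101 to 0.054 for RAD17 under cisplatin. Over 18 pairs of libraries with the same replicate number in different groups, the correlation of deviations from the group means ran from -0.257 to 0.355. Pairs with different numbers were not computed, so this range cannot show whether the numbers pair the libraries. The replicate block called CHEK1 lower in A2780 (-0.14, adjusted p = 0.0479), which made 7 members lower instead of 6, and changed no other call of a member. Per kilobase of canonical transcript, RPKM in A2780 control was 40.1 for TOPBP1, 37.4 for CHEK2, 32.0 for TP53BP1, 31.5 for WEE1, 28.0 for CLSPN, 23.5 for ATM, 22.9 for CHEK1, 22.0 for ATR, 21.9 for RAD17 and 11.7 for ATRIP. With 250 instead of 500 bp around the start, 9 of 10 members had a peak in Acis cisplatin, and with only the 20000 peaks of highest -log10 q kept, 9 had one in each cisplatin list.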

Other observations

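The raw count ratio of CHEK1 to CHEK2, which needs no scaling between libraries, was 1.36, 1.38 and 1.36 in A2780 control and 1.24, 1.26 and 1.19 in A2780 cisplatin, against 1.43, 1.62 and 1.75 in Acis control and 1.64, 1.84 and 1.64 in Acis cisplatin. The ratio of WEE1 to CHEK1 counts was above 1 in all 6 A2780 libraries, with a highest value of 1.43, and all 6 Acis libraries lay lower, at 0.786 to 0.947. Both ratios were computed after the values of the genes had been seen, and no test was run on them.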
